A study of Mus musculus with 8 samples.

Results

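The collagen genes were examined in RNA sequencing counts of mouse prospermatogonia, the fetal precursors of sperm, taken at E17.5. The members were the protein-coding genes of the deposited table whose symbol has the form Col, number, a, number. There were 44 of them among 55401 genes, of which 21897 were protein-coding. All 44 passed the filter on low counts, as did 24005 genes in all. The rule itself uses names and no measured value. They were divided into 11 fibrillar collagens, 6 basement membrane collagens (the type IV chains) and 27 others. The libraries were 4 labelled KO (genotype Tet1-/-) and 4 labelled WT (Tet1+/+), all from batch 1. TET1 oxidises 5-methylcytosine and also acts on chromatin without catalysis, and the series title names that second role, in the male germline, as its subject. The sources used here do not say how the cells were isolated or which Tet1 allele was used. Nothing in the labels says that the libraries came from separate animals, so p-values measure the spread between these samples.

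Collagen chains wind around each other into a triple helix, for which glycine must recur at regular steps along the chain. Fibrillar collagens (types I, II, III, V, XI, XXIV and XXVII) form the fibres of interstitial matrix, and type IV forms the sheet-like network of basement membranes. The remaining types decorate fibrils, span cell membranes, build microfibrils (type VI) or anchor epithelia (types VII and XVII). In the fetal testis, germ cells lie inside cords whose basement membrane is laid down by Sertoli and peritubular myoid cells, while fibrillar collagens are made chiefly by the mesenchyme outside the cords.

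The Tet1 count went against the labels, and directions below refer to the labels as deposited. Tet1 averaged 124 ± 33.4 CPM in the libraries labelled KO and 31.9 ± 1.95 CPM in those labelled WT (SD, n = 4 each), a log2 difference of 1.97 (edgeR adjusted p = 3.03e-06). CPM is the usual unit of counts scaled to a common library size, here with TMM factors. A count per gene does not show which exons were read. Whether the labels were exchanged was not tested, and every direction below would reverse if they were. Totals lay between 13820764 and 20115250 counts per library, and a count of 0 allowed up to 3 counts, or 0.146 to 0.221 CPM. Germ cell identity was checked with 10 germ cell markers. Their summed level was 2209 to 2686 CPM in the libraries labelled KO and 2331 to 2679 CPM in those labelled WT. Piwil2 was the most abundant in both groups, and 5 of 10 were called higher and 3 lower. Over all genes tested, 25.3% were called higher and 28.2% lower. Most of the 10 lay at a mean log2 CPM of 4 and over. There, 46.4% of protein-coding genes were called higher and 18% lower. Markers of other testis cells were detected in every library. KO 4 stood apart, with 1753 CPM summed over 6 fetal Leydig cell genes, against 12.9 to 20.4 CPM in the other libraries labelled KO and 14.2 to 28.7 CPM in those labelled WT. Its sum over 9 Sertoli cell genes was 153 CPM, against 29.2 to 33.2 CPM in the other libraries labelled KO and 20.5 to 35.1 CPM in those labelled WT. In KO 4, most of it was Inha (58.3 CPM) and Nr5a1 (52.4 CPM), at 2.21 to 3.64 CPM in the other libraries labelled KO. Gata4 was at 17.4 CPM in KO 4, against 7.15 to 7.95 CPM there. The rest differed less. Sox9, Wt1, Amh and Aard had 6.23, 7.33, 5.01 and 4.76 CPM in KO 4. Their highest values in the other libraries labelled KO were 6.13, 6.30, 3.98 and 3.31 CPM. Dhh and Cldn11 were not highest in KO 4. Cyp17a1 and Cyp11a1 had the highest Leydig means and Nr5a1 and Inha the highest Sertoli means over all libraries, and KO 4 set both ranks: Star led the Leydig genes and Gata4 the Sertoli genes in each of the other 7 libraries. Of 5 Leydig genes tested, 4 were called higher, all with overlapping groups, and without KO 4 the edgeR count was 0, with 0 of 5 at an unadjusted p under 0.05. Of 9 Sertoli genes, 5 were called higher and 1 lower, and without KO 4 the counts were 3 (Aard, Amh and Wt1) and 0. With every library, the shares over all genes were 25.3% higher and 28.2% lower.

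Most collagen genes were lower in the libraries labelled KO. Of the 44, 26 fell, 2 rose (Col1a1 and Col9a2) and 16 did not pass, with edgeR at a Benjamini-Hochberg (BH) adjusted p under 0.05. Among all genes tested, 28.2% were called lower and 25.3% higher, and among protein-coding genes 29.8% and 31%. The 26 are 59.1% of the collagens. The median log2 difference (labelled KO minus labelled WT) was -0.95 over the collagens and -0.05 over all genes tested. Upper-quartile and ribosomal protein scaling shift all genes together: they move the median of all genes by -0.24 and -0.18, and the calls over all genes to 8882 lower and 4033 higher under the first and 7598 and 3996 under the second, against 6770 and 6083 here; the collagen calls were then 31 lower and 27 lower, with 2 higher in both. Of the 26 falls, 20 were of 1 or more on the log2 scale and 7 of 2 or more. All 4 libraries labelled KO lay below all 4 labelled WT for 25 collagens and above them for 2, where 25.1% and 23.2% of all genes did so. In bulk samples, fewer cells of a type and less RNA per cell cannot be told apart.

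Collagens took a small part of each library. Their counts made up 0.0682% to 0.0906% of the total in the libraries labelled KO and 0.126% to 0.172% in those labelled WT. Summed over the 44 genes, the level was 847, 772, 924 and 929 CPM in KO 1 to KO 4, against 1426, 1560, 1304 and 1197 CPM in WT 1 to WT 4. The summed level of the 27 other collagens was 429.8 ± 44.1 CPM in the libraries labelled KO and 786 ± 59.3 CPM in those labelled WT (SD, n = 4 each). For the fibrillar collagens the sums were closer, at 325 ± 26.3 and 422 ± 75.6 CPM in the same order of groups, and for type IV they were 114 ± 12.6 and 163 ± 28.4 CPM. The lowest sum of the libraries labelled WT stood above the highest labelled KO in each of the 3 classes.

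**Figure D1:**
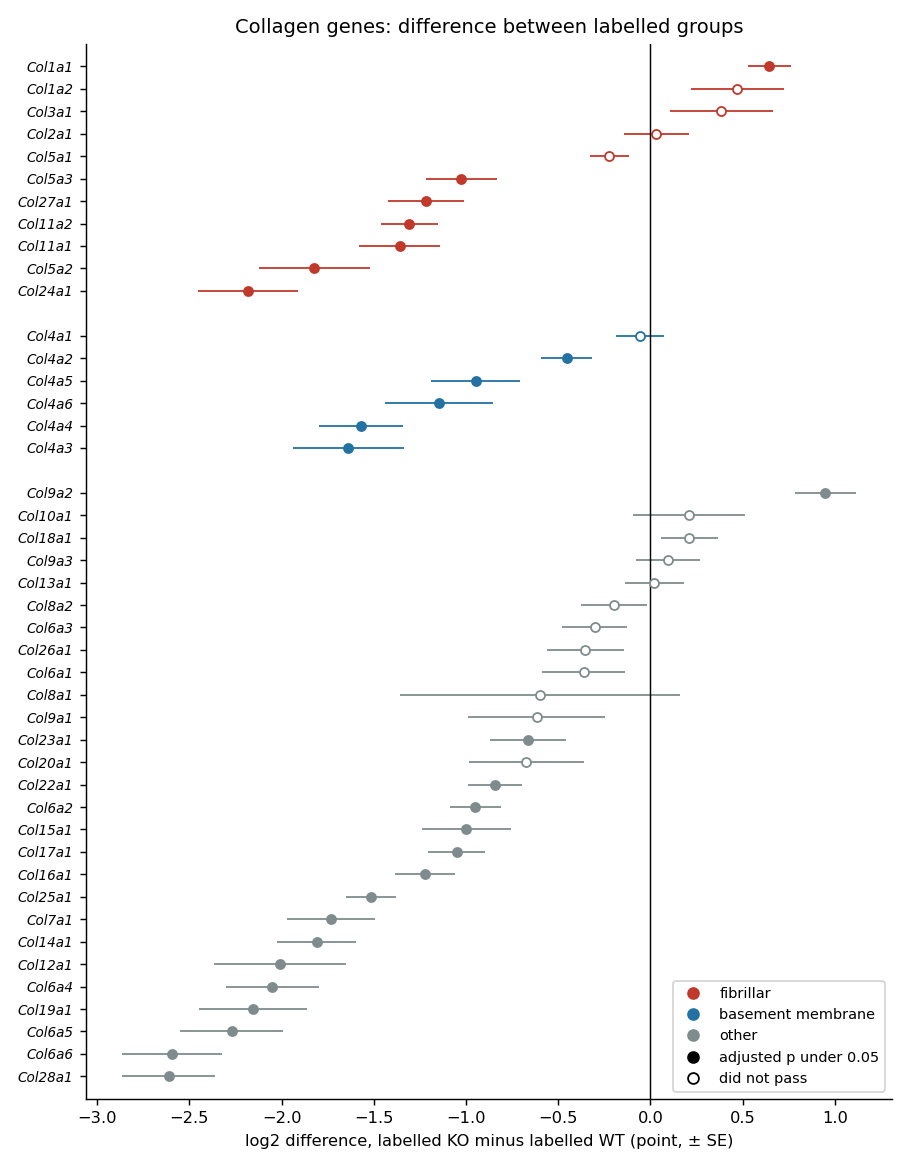
Log2 difference (labelled KO minus labelled WT, x axis) of each of the 44 collagen genes, with its SE, from the edgeR fit; colours give the class, and filled points passed at an adjusted p under 0.05. The 26 filled points left of 0 reach -2.61 (Col28a1), and the 2 filled points right of 0 are Col1a1 (0.65) and Col9a2 (0.95). Of the unfilled points right of 0, 5 moved to its left with upper-quartile scaling.

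Fibrillar collagens split into chains that fell and chains that did not. Of 11, 6 fell (Col24a1, Col5a2, Col11a1, Col11a2, Col27a1 and Col5a3), 1 rose and 4 did not pass, with a median log2 difference of -1.02. Those shares were 54.5% lower and 9.09% higher, beside 28.2% and 25.3% of all genes. Col1a1, the main chain of type I collagen, had 61.3, 56.6, 64.5 and 53.2 CPM in KO 1 to KO 4, against 33.1, 35.4, 38.02 and 44.0 CPM in WT 1 to WT 4. The groups did not overlap: KO 4, the lowest library labelled KO, stood above WT 4, the highest labelled WT (log2 difference 0.65, SE 0.117, edgeR adjusted p = 0.000524). Its partner chain Col1a2 had 30.9, 17.6, 27.97 and 28.5 CPM in KO 1 to KO 4, against 16.5, 31.2, 14.5 and 13.4 CPM in WT 1 to WT 4. The groups overlapped, with WT 2 the highest of all 8, and the gene did not pass (log2 difference 0.47, SE 0.253, edgeR adjusted p = 0.131); it did without WT 2 (log2 difference 0.83, adjusted p = 0.00261), without KO 2 (0.67, adjusted p = 0.0375) and without a low-count filter (0.53, adjusted p = 0.0259). Col3a1, the type III chain, had 48.4, 31.8, 32.6 and 53.4 CPM in KO 1 to KO 4, against 25.5, 56.3, 21.3 and 24.2 CPM in WT 1 to WT 4. WT 2 was again the highest library, and without it the log2 difference was 0.82 (edgeR adjusted p = 0.00261), against 0.39 (SE 0.278, adjusted p = 0.258) with all libraries.

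The chains of types V and XI, which co-assemble and set the diameter of fibrils, mostly fell: 4 of these 5 genes passed as lower. Over all genes, 28.2% were called lower. Col5a1 had 82.2, 84.02, 73.0 and 79.04 CPM in KO 1 to KO 4, against 104, 98.5, 86.2 and 82.4 CPM in WT 1 to WT 4, with overlapping groups (log2 difference -0.22, SE 0.106, edgeR adjusted p = 0.0918). It passed as lower with upper-quartile scaling (-0.46, adjusted p = 0.00207), ribosomal protein scaling (-0.41, adjusted p = 0.0165) and the stricter filter (-0.26, adjusted p = 0.0464). Its partner Col5a2 had 7.42, 4.48, 10.04 and 7.07 CPM in KO 1 to KO 4, against 27.2, 40.5, 20.1 and 14.2 CPM in WT 1 to WT 4. No library labelled KO reached the lowest labelled WT (log2 difference -1.82, SE 0.302, edgeR adjusted p = 0.000261). Col5a3 had 21.3, 13.8, 27.4 and 29.9 CPM in KO 1 to KO 4, against 50.8, 47.1, 42.1 and 47.9 CPM in WT 1 to WT 4, a fall without overlap (log2 difference -1.02, SE 0.192, edgeR adjusted p = 0.00064). Col11a1 had 12.7, 17.8, 14.5 and 14.01 CPM in KO 1 to KO 4, against 38.3, 56.0, 33.9 and 23.3 CPM in WT 1 to WT 4. Col11a2 had 13.8, 13.2, 21.04 and 19.02 CPM in KO 1 to KO 4, against 40.6, 38.98, 40.3 and 45.7 CPM in WT 1 to WT 4. Both type XI chains fell without overlap, by 1.36 and 1.31 on the log2 scale (edgeR adjusted p = 0.000222 and 2.35e-05).

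Col24a1, a fibrillar chain known from developing bone, had 6.36, 4.03, 7.68 and 5.205 CPM in KO 1 to KO 4, against 26.6, 39.7, 23.4 and 15.4 CPM in WT 1 to WT 4, without overlap and the deepest fall of the class (log2 difference -2.18, SE 0.272, edgeR adjusted p = 3.11e-05). Col27a1, a cartilage fibrillar chain, fell by 1.22 (edgeR adjusted p = 0.00032). Col2a1, the main collagen of cartilage, had 42.2, 37.6, 34.7 and 47.2 CPM in KO 1 to KO 4, against 43.4, 53.3, 30.3 and 31.2 CPM in WT 1 to WT 4. Its groups overlapped and its estimate of 0.032 (SE 0.175, edgeR adjusted p = 0.89) turned negative with upper-quartile (-0.21) and ribosomal protein scaling (-0.14). Col3a1 and Col5a2 lie tail to tail on chromosome 1 with 24614 bases between them, and their log2 differences of 0.39 and -1.82 stood on opposite sides of 0.

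**Figure D2:**
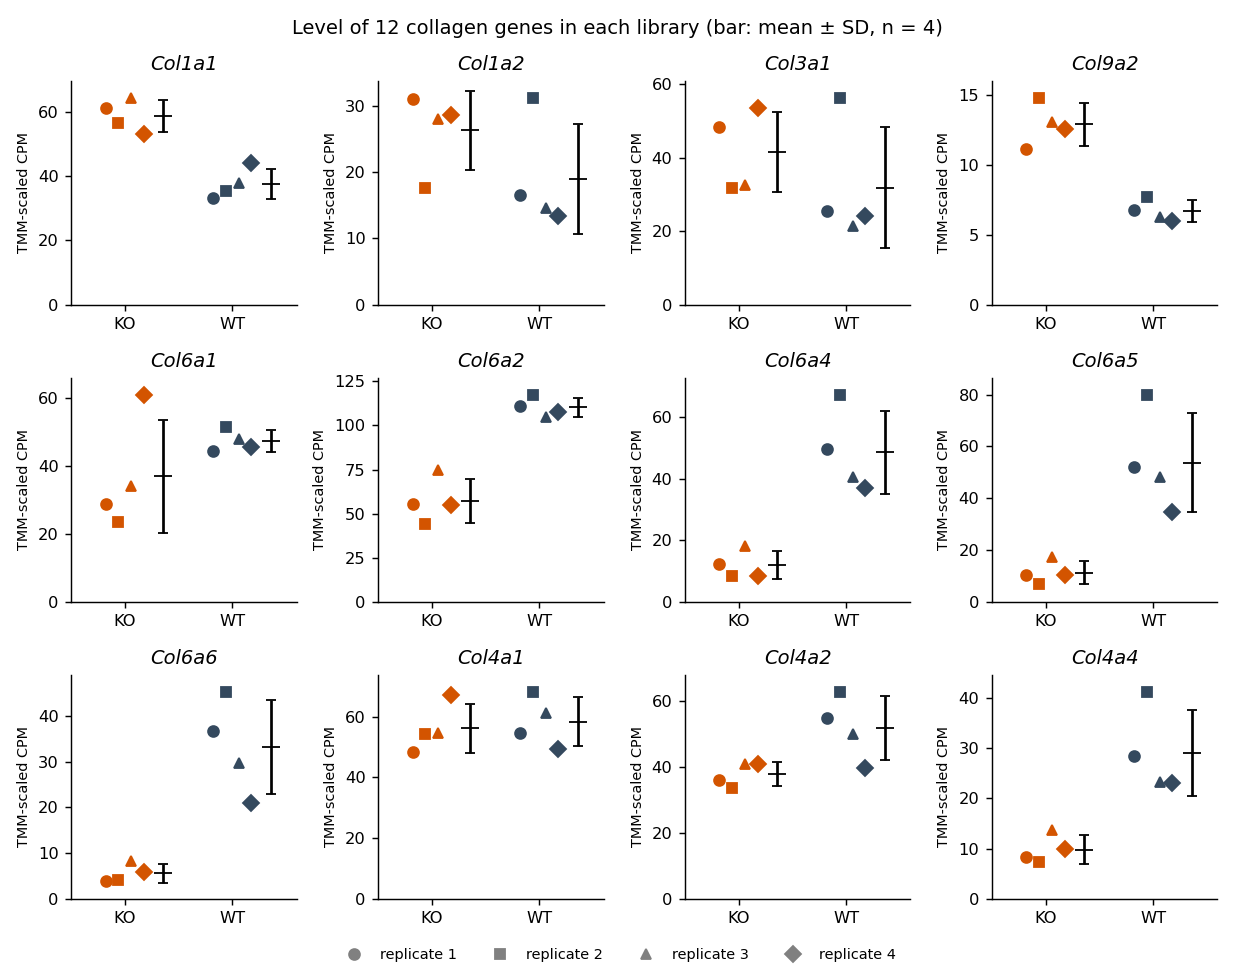
Level (scaled CPM, y axis from 0) of 12 collagen genes in the 4 libraries labelled KO (left in each panel) and the 4 labelled WT (right), with the mean and SD at the side; the shape gives the replicate number. For Col6a4, Col6a5 and Col6a6 every library labelled KO lies below every library labelled WT, while WT 2 is the highest library for Col1a2 and Col3a1 and KO 4 for Col6a1.

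Of the 6 type IV chains, 5 fell and 0 rose with edgeR, with the same counts at an unadjusted p under 0.05, with DESeq2 and with limma-voom. The 5 are 83.3%, beside 28.2% of all genes called lower and 25.3% called higher. All 6 span 100 kb or more, where 46.6% of protein-coding genes were called lower and 19.3% higher. Col4a1 and Col4a2 build the network found in basement membranes of most tissues, Col4a3 to Col4a5 that of the kidney glomerulus and other specialised membranes, and Col4a6 joins Col4a5. The 6 genes form 3 pairs that are transcribed away from each other. The annotated starts of Col4a1 (chromosome 8, 11198423 to 11312826, minus strand) and Col4a2 (11312805 to 11449287, plus strand) overlap by 22 bases in GRCm38, the assembly of mm10. Their promoter windows, from 250 bases before to 50 after each start in RefSeq (GRCm38.p6), share 78 bases and are printed because both genes start from the same stretch. The windows are chr8:11312777-11313076 (minus strand) for Col4a1 and chr8:11312555-11312854 (plus strand) for Col4a2, each 5′ to 3′ on its gene's strand. Capitals mark matches on either strand to CCAAT (the CCAAT box) and GGGCGG (the GC box).
Col4a1: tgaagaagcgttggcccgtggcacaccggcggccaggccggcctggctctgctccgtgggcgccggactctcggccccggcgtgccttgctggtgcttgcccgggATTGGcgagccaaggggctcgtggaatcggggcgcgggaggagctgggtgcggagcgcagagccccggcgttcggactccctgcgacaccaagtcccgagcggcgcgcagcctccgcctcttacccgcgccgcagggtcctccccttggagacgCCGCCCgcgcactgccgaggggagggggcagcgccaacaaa
Col4a2: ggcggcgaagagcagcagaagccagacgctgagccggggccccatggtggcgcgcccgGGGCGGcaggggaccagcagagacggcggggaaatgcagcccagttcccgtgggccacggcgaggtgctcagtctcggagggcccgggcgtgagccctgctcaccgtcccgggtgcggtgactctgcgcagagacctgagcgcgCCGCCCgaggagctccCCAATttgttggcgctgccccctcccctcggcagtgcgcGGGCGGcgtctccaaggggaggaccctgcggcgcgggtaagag
They hold 37 and 33 CpG dinucleotides, with an observed to expected CpG ratio of 0.902 and 0.818. TATAAA, the TATA box, occurs in neither. Over all 32851 promoter windows of the table, 37.4% held CCAAT, 35.7% GGGCGG and 13.6% TATAAA, and of 38 windows of 35 collagens 13, 23 and 5 did.

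Col4a1 had 48.4, 54.4, 54.7 and 67.3 CPM in KO 1 to KO 4, against 54.8, 68.3, 61.2 and 49.4 CPM in WT 1 to WT 4. Its groups overlapped, and it did not pass (log2 difference -0.056, SE 0.131, edgeR adjusted p = 0.737), with an estimate that was 0.0089 with DESeq2, 0.034 without KO 1 and 0.031 without WT 2. Col4a2 had 35.98, 33.6, 40.7 and 40.7 CPM in KO 1 to KO 4, against 54.6, 62.7, 49.8 and 39.6 CPM in WT 1 to WT 4. It fell (log2 difference -0.45, SE 0.139, edgeR adjusted p = 0.0146) although KO 3 and KO 4 stood above WT 4, and its call was lost without KO 2 (adjusted p = 0.0609). Col4a3 had 3.58, 2.33, 5.24 and 2.83 CPM in KO 1 to KO 4, against 11.7, 15.5, 9.78 and 6.21 CPM in WT 1 to WT 4. Col4a4, which starts 71 bases away on the opposite strand, had 8.22, 7.32, 13.7 and 9.96 CPM in KO 1 to KO 4, against 28.4, 41.3, 23.3 and 23.1 CPM in WT 1 to WT 4. Col4a3 and Col4a4 fell without overlap, by 1.64 (SE 0.301, edgeR adjusted p = 0.000566) and 1.57 (SE 0.227, adjusted p = 9.71e-05). The X-linked chain Col4a5 had 6.76, 3.01, 5.24 and 5.27 CPM in KO 1 to KO 4, against 11.6, 7.26, 10.4 and 9.71 CPM in WT 1 to WT 4. Col4a6, 1308 bases from it, had 1.46, 1.19, 1.92 and 1.35 CPM in KO 1 to KO 4, against 2.77, 4.65, 3.07 and 2.59 CPM in WT 1 to WT 4. Both fell without overlap, by 0.95 and 1.15 on the log2 scale (edgeR adjusted p = 0.00517 and 0.00489). Col4a3 shares 563 exonic bases with a noncoding gene on the other strand, and whether reads were counted by strand is not given in the sources used here.

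Of the 6 type VI genes, 4 fell, 0 rose and 2 did not pass, with a median log2 difference of -1.499. The 4 are 66.7%, beside 28.2% of all genes called lower and 25.3% called higher. At an unadjusted p under 0.05, with DESeq2 and with limma-voom, 4 were lower and 0 higher. Col6a1, Col6a2 and Col6a3 form the classical beaded microfibril around cells, and Col6a4, Col6a5 and Col6a6 encode chains that can stand in for Col6a3. Col6a1 had 28.9, 23.5, 34.2 and 61.04 CPM in KO 1 to KO 4, against 44.4, 51.6, 48.0 and 45.6 CPM in WT 1 to WT 4. KO 4 was the highest of all 8 libraries and the other 3 labelled KO were below every library labelled WT. The gene did not pass (log2 difference -0.36, SE 0.227, edgeR adjusted p = 0.195), but did without KO 4 (-0.69, adjusted p = 0.00209), with a somatic marker covariate (-0.49, adjusted p = 0.00655) and under upper-quartile factors (-0.60, adjusted p = 0.0422). Its neighbour Col6a2 had 55.2, 44.2, 74.5 and 54.8 CPM in KO 1 to KO 4, against 111, 118, 105 and 107 CPM in WT 1 to WT 4, a fall without overlap (log2 difference -0.95, SE 0.138, edgeR adjusted p = 0.000103). Col6a3 had 20.7 ± 3.55 CPM in the libraries labelled KO and 25.5 ± 5.50 CPM in those labelled WT (SD, n = 4 each) and did not pass (edgeR adjusted p = 0.166); it did without WT 2 (-0.44, adjusted p = 0.023) and with upper-quartile scaling (-0.53, adjusted p = 0.0278).

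The other type VI genes stand in a row on chromosome 9, all on the minus strand, with 27917 and 28810 bases between them. They were picked for description after their values were seen. Col6a4 (105989454 to 106096783) had 12.1, 8.45, 18.1 and 8.42 CPM in KO 1 to KO 4, against 49.5, 67.3, 40.5 and 36.8 CPM in WT 1 to WT 4. Col6a5 (105856078 to 105960643) had 10.3, 6.75, 17.3 and 10.3 CPM in KO 1 to KO 4, against 52.2, 80.04, 48.05 and 34.8 CPM in WT 1 to WT 4. Col6a6 (105687809 to 105828160) had 3.84, 4.14, 8.27 and 5.85 CPM in KO 1 to KO 4, against 36.7, 45.4, 29.6 and 21.03 CPM in WT 1 to WT 4. KO 3 was the highest library labelled KO and WT 2 the highest labelled WT for all 3. They fell by 2.05, 2.27 and 2.59 on the log2 scale (edgeR adjusted p = 2.67e-05, 2.86e-05 and 8.45e-06). Per kb of exon, the sum of the 3 was 3.17 ± 1.18 CPM in the libraries labelled KO and 15.02 ± 4.69 CPM in those labelled WT (SD, n = 4 each), or 2.67% and 8.38% of all collagen CPM per kb in the same order. Their promoter windows are printed because the genes moved together; they are chr9:106096642-106096941, chr9:105960594-105960893 and chr9:105828036-105828335 (RefSeq, GRCm38.p6, minus strand), with the same motifs in capitals.
Col6a4: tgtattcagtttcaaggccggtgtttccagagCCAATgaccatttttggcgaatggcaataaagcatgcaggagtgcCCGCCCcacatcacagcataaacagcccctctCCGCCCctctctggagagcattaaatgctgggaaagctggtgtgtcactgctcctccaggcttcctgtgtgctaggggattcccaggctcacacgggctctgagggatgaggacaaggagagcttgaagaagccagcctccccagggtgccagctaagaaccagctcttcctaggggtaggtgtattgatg
Col6a5: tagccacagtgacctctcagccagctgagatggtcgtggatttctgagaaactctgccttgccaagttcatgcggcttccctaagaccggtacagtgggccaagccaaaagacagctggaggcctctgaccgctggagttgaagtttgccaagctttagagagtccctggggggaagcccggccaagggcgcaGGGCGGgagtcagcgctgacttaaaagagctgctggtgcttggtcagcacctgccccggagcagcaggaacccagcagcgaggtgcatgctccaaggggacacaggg
Col6a6: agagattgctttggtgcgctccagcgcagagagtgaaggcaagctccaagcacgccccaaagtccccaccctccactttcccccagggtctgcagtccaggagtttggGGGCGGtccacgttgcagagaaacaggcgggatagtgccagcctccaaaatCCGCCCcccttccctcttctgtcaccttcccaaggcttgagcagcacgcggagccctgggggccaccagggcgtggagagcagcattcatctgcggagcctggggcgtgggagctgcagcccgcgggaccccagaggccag
They hold 5, 10 and 14 CpG, fewer than either type IV window above. GGGCGG was found in all 3, CCAAT in that of Col6a4 and TATAAA in none.

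Among the collagens that decorate fibrils, 5 of 9 fell (55.6%, beside 28.2% of all genes), 1 rose (11.1%, beside 25.3%) and 3 did not pass. Col9a2, a chain of the cartilage collagen IX, had 11.1, 14.8, 13.1 and 12.5 CPM in KO 1 to KO 4, against 6.76, 7.73, 6.23 and 5.95 CPM in WT 1 to WT 4, without overlap and the largest rise of any collagen (log2 difference 0.95, SE 0.164, edgeR adjusted p = 0.000367). Col9a3, its partner, had 7.496 ± 0.79 CPM in the libraries labelled KO and 7.005 ± 0.748 CPM in those labelled WT (SD, n = 4 each; edgeR adjusted p = 0.656). The reads of Col9a3 can be shared with Tcfl5, which overlaps 234 of its exonic bases on the other strand. Likewise, genes on the other strand overlap 127 and 162 exonic bases of Col6a4 and 99 and 113 of Col5a1. Whether reads in such stretches were counted by strand is not given in the sources used here. Col22a1, found at tissue junctions such as that of muscle and tendon, had 56.6, 53.4, 64.1 and 50.6 CPM in KO 1 to KO 4, against 115, 71.9, 113 and 102 CPM in WT 1 to WT 4 and fell without overlap (log2 difference -0.84, SE 0.145, edgeR adjusted p = 0.000346). Falls of Col19a1 (-2.15), Col12a1 (-2.01), Col14a1 (-1.81) and Col16a1 (-1.22) also left no overlap, with edgeR adjusted p between 2.12e-05 and 0.000445. Col9a1 (adjusted p = 0.179) and Col20a1 (adjusted p = 0.084) did not pass; Col9a1 did without WT 4 (-0.83, adjusted p = 0.0499), and Col20a1 did under limma-voom (-0.80, adjusted p = 0.0454) and upper-quartile factors (-0.90, adjusted p = 0.0319).

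Of the 4 transmembrane collagens, 3 fell (75.0%, beside 28.2% of all genes). Col25a1, first known from amyloid plaques of brain and needed for motor innervation, had 15.2, 17.4, 23.5 and 20.9 CPM in KO 1 to KO 4, against 57.9, 56.2, 53.9 and 51.6 CPM in WT 1 to WT 4, and the gap between the groups was wide beside the spread within them (log2 difference -1.52, SE 0.138, edgeR adjusted p = 3.18e-06). Col17a1, the hemidesmosome collagen of epithelia, fell by 1.05 (edgeR adjusted p = 0.000106). Col23a1 fell by 0.66 (edgeR adjusted p = 0.015), with KO 3 above WT 4, and lost its call without KO 1 (adjusted p = 0.0553), KO 2 (0.0503) or WT 1 (0.0594). Col13a1, at 17.1 ± 2.35 CPM in the libraries labelled KO and 16.9 ± 2.93 CPM in those labelled WT (SD, n = 4 each), did not pass (adjusted p = 0.919). Col28a1, a collagen with von Willebrand factor domains known from peripheral nerve, had 2.05, 1.59, 2.73 and 1.22 CPM in KO 1 to KO 4, against 12.3, 13.7, 11.0 and 9.12 CPM in WT 1 to WT 4. The groups lay far apart, and this was the largest fall of any collagen (log2 difference -2.61, SE 0.252, edgeR adjusted p = 4.93e-06). Col7a1, which forms the anchoring fibrils of skin, fell by 1.73 (edgeR adjusted p = 6.21e-05).

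Col18a1, whose C-terminal fragment is endostatin, was the most abundant collagen per kb of exon over all libraries and had 76.8, 90.5, 60.5 and 94.7 CPM in KO 1 to KO 4, against 74.2, 53.4, 80.9 and 70.3 CPM in WT 1 to WT 4. The groups overlapped (log2 difference 0.21, SE 0.155, edgeR adjusted p = 0.269), and the estimate was -0.032 with upper-quartile scaling. Col15a1, the other member of its subfamily, fell by 1.00 (edgeR adjusted p = 0.00381). None of the 3 short-chain network collagens passed with edgeR, DESeq2 or limma-voom, nor at an unadjusted p under 0.05. These were Col8a1, Col8a2 and Col10a1, with log2 differences of -0.60, -0.20 and 0.21 (edgeR adjusted p = 0.527, 0.37 and 0.582); Col8a1 had no count in KO 4 and averaged 0.683 ± 0.667 CPM in the libraries labelled KO and 1.03 ± 0.677 CPM in those labelled WT (SD, n = 4 each). Col10a1, the marker of hypertrophic cartilage, averaged 2.58 ± 0.818 and 2.23 ± 0.607 CPM in the same order. Col26a1 did not pass (-0.35, adjusted p = 0.168) although its groups did not overlap; it did with upper-quartile scaling (-0.59, adjusted p = 0.0315).

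Ratios of 2 chains within a library do not depend on how libraries are scaled. Pairs from 1 trimer or 1 locus were compared, chosen after the values above were seen, and 9 had counts in every library. The smallest p of an exact two-sided permutation test over the 70 splits is 0.0286, which 5 pairs reached, and their BH value over the 9 pairs was 0.0514, so none passed the correction. Col4a2 over Col4a1 was 0.678 ± 0.0763 in the libraries labelled KO and 0.882 ± 0.0927 in those labelled WT (SD, n = 4 each). Col5a2 over Col5a1 was 0.0927 ± 0.0345 in the libraries labelled KO and 0.2697 ± 0.101 in those labelled WT (SD, n = 4 each). Col6a2 over Col6a1 was 1.72 ± 0.563 in the libraries labelled KO and 2.33 ± 0.133 in those labelled WT (SD, n = 4 each), with KO 4 the lowest library at 0.898. The ratio of Col5a3 to Col5a1 (0.294 ± 0.103 and 0.509 ± 0.0483 in the same order) and that of Col9a2 to Col9a3 (1.74 ± 0.322 and 0.953 ± 0.0669) also had no overlap. Leaving out 1 library raised the exact p of the first 4 of these pairs to between 0.0571 and 0.114 in some settings: without WT 1 for Col4a2 over Col4a1, without KO 2 or WT 2 for Col5a2 over Col5a1, and without any 1 library labelled WT for Col5a3 over Col5a1 and Col6a2 over Col6a1. In the other 4 pairs the groups overlapped, with exact p between 0.771 and 0.971. The log2 difference in ratio was 0.12 for Col1a1 over Col1a2, 0.055 for Col4a4 over Col4a3, -0.15 for Col4a6 over Col4a5 and 0.03 for Col11a1 over Col11a2.

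**Figure D3:**
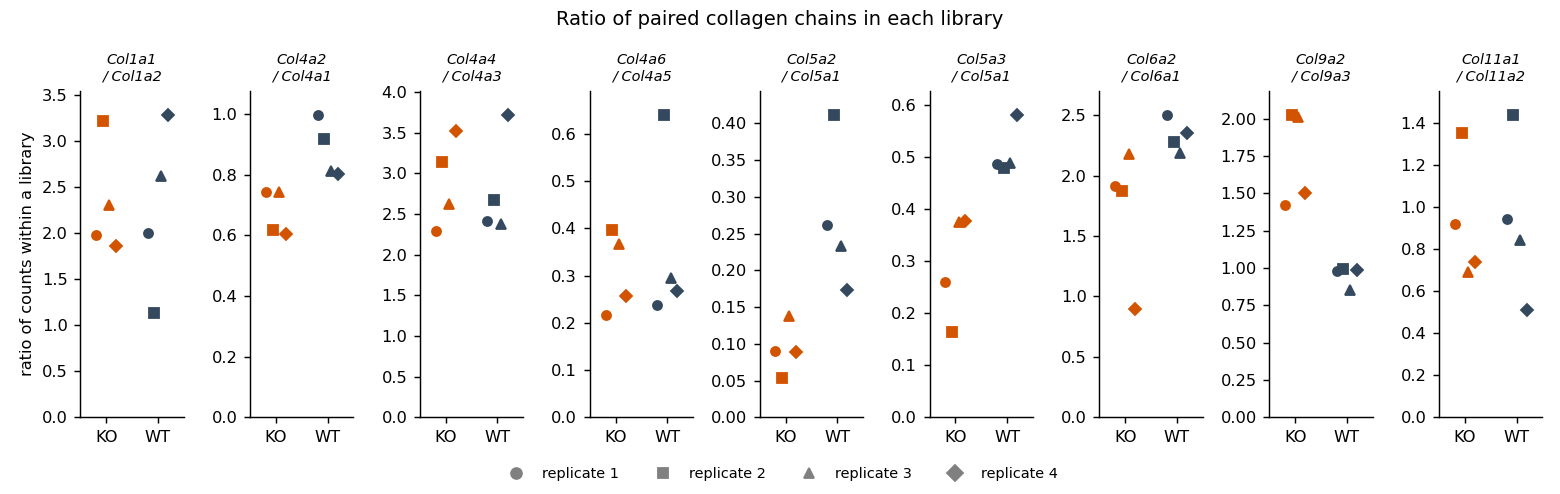
Ratio of the counts of 2 collagen chains within each library (y axis from 0), labelled KO left and labelled WT right in each of 9 panels, 1 point per library, with the shape for the replicate number. The groups do not overlap for Col4a2 over Col4a1, Col5a2 over Col5a1, Col5a3 over Col5a1, Col6a2 over Col6a1 and Col9a2 over Col9a3.

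The share of collagens that fell was set beside that of protein-coding genes of like level. Of 27 collagens at a mean log2 CPM of at least 4, 17 fell and 1 rose, where 18% of protein-coding genes at that level were called lower and 46.4% higher. Of 16 with a mean of 1 to under 4, 9 fell and 1 rose, against 40.3% and 20.8%. Col8a1 alone lay below 1 and did not pass. The median log2 difference was -1.02 for the abundant collagens and 0.26 for the abundant protein-coding genes, and -0.81 and -0.29 in the bin below. Across the 44 genes the log2 difference had a Spearman correlation of 0.273 with CPM per kb, and across the 16568 protein-coding genes tested it was 0.47. Genes are no independent replicates, and the collagens share their libraries.

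**Figure D4:**
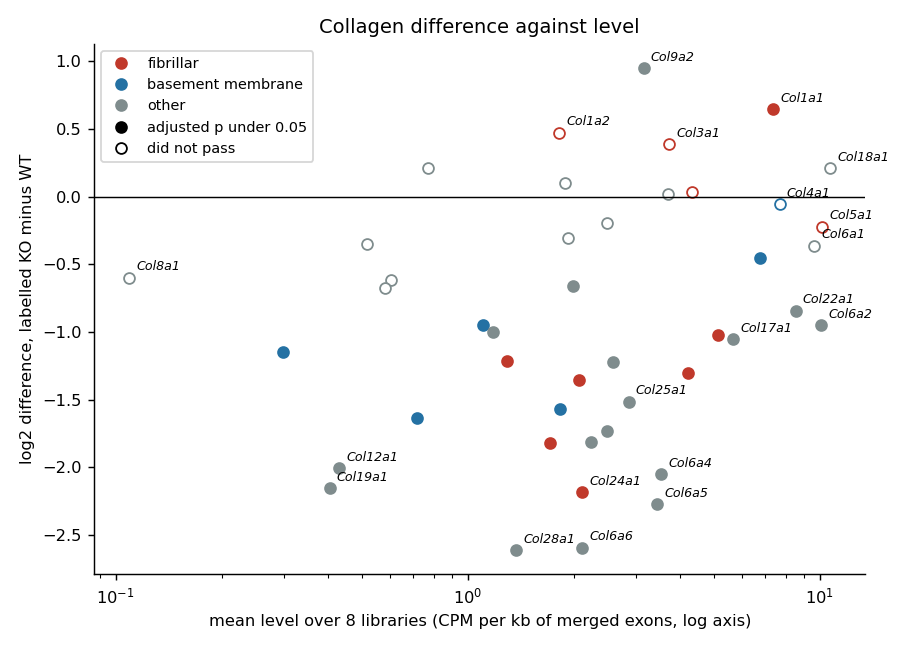
Log2 difference (labelled KO minus labelled WT, y axis) against the mean level per kb of merged exon over the 8 libraries (x axis, log scale) for the 44 collagens, coloured by class and filled where the adjusted p was under 0.05. Falls of 2 or more lie at levels between 0.405 (Col19a1) and 3.54 (Col6a4) CPM per kb, and the 4 collagens at 9.63 CPM per kb or more lie between -0.95 and 0.21.

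Collagen genes differ widely in genomic length, and the log2 difference was lower among the longer genes. Of the 26 collagens that span 100 kb or more, 20 fell and 0 rose (the same counts at an unadjusted p under 0.05, with DESeq2 and with limma-voom), where 46.6% of protein-coding genes of that span were called lower and 19.3% higher. Of the 15 that span under 50 kb, 5 fell (Col5a3, Col6a2, Col7a1, Col11a2 and Col17a1) and 2 rose, against 25.8% and 33.4%. Of the 3 in between, 1 fell (Col16a1), against 33.3%. The bins were chosen after the values were seen. The Spearman correlation between span and log2 difference was -0.49 across the 44 collagens and -0.158 across protein-coding genes. The rising Col1a1 and Col9a2 span 16819 and 15938 bases, and Col28a1, with the largest fall, spans 194810. For promoter CpG content the correlation over the 35 collagens with a promoter window was 0.12 (Spearman), and 7 of 11 with a CpG ratio of 0.6 or more fell, beside 14 of 24 with a lower ratio.

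**Figure D5:**
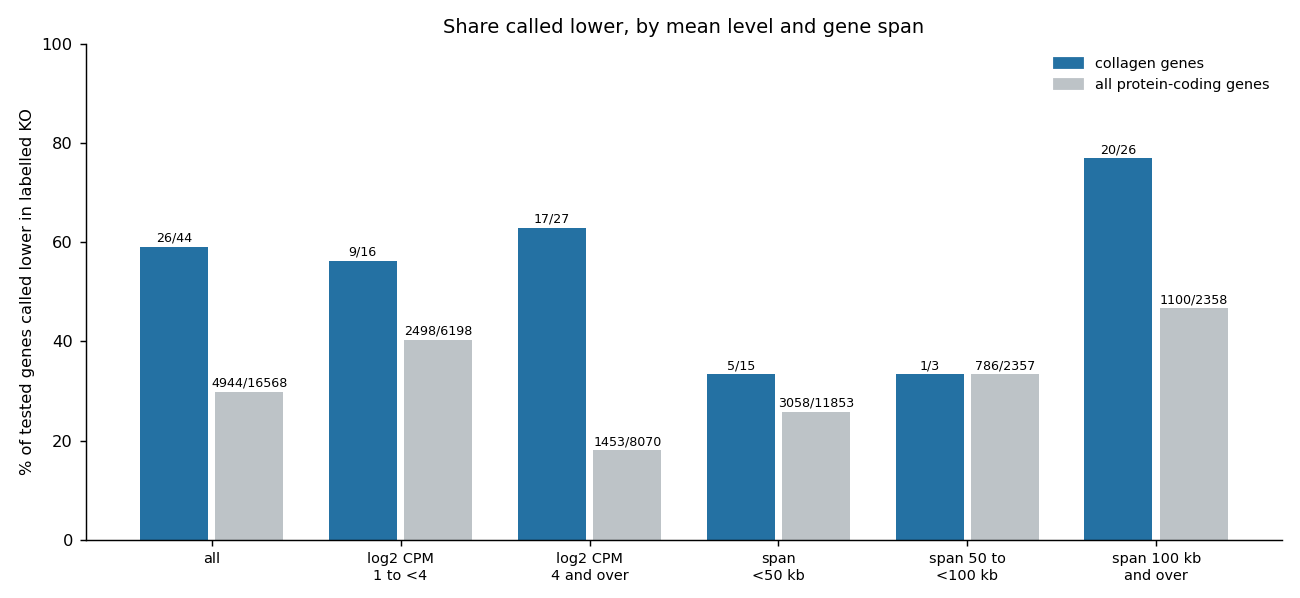
Percent of tested genes called lower in the libraries labelled KO (y axis) for collagens and for all protein-coding genes, over all genes, in 2 bins of mean level and in 3 bins of genomic span; counts stand above the bars. The collagen share is 59.1% against 29.8% over all genes and 76.9% against 46.6% at a span of 100 kb or more, and in the middle span bin, with 3 collagens, both shares are 33.3%.

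Per kb of exon, which allows levels of different genes to be compared, the leading collagens in the libraries labelled KO were Col18a1 (11.5 ± 2.20 CPM per kb), Col5a1 (9.37 ± 0.569), Col1a1 (8.97 ± 0.762), Col6a1 (8.43 ± 3.804) and Col4a1 (7.53 ± 1.07). In those labelled WT they were Col6a2 (13.2 ± 0.649), Col22a1 (10.9 ± 2.17), Col5a1 (10.9 ± 1.20), Col6a1 (10.8 ± 0.727) and Col18a1 (9.93 ± 1.67; SD, n = 4 each). Neighbours in both orders differed by less than the larger of their SDs, except Col6a2 and Col22a1 in the libraries labelled WT. Types I and III together made up 13.01% ± 1.14 of collagen CPM per kb in the libraries labelled KO and 5.94% ± 0.944 in those labelled WT (SD, n = 4 each). The lowest library labelled KO was at 12.4% and the highest labelled WT at 6.92%. The summed level of these types was 15.3 ± 1.47 CPM per kb in the libraries labelled KO and 10.5 ± 2.17 in those labelled WT. These levels overlapped, with WT 2 at 13.6 above KO 2 at 13.3 CPM per kb. The sum of all collagens, by which the share is divided, was 118 ± 10.1 and 177 ± 17.4 CPM per kb in the same order. With the longest transcript as length, Col6a2 was first and Col18a1 second over all libraries, and with merged exons their ranks were 1 for Col18a1 and 3 for Col6a2.

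Of 19 genes that fold and modify collagen in the cell, 5 rose, 4 fell and 10 did not pass, with a median log2 difference of -0.10. Those shares, 26.3% higher and 21.1% lower, lie near the 25.3% and 28.2% of all genes. Serpinh1, the collagen chaperone HSP47, rose to 104 ± 18.9 CPM in the libraries labelled KO, against 20.7 ± 3.504 CPM in those labelled WT (SD, n = 4 each), a log2 difference of 2.34 at an edgeR adjusted p = 3.94e-07. Colgalt1, which adds galactose to hydroxylysine, rose by 0.89, and P4hb, the shared subunit of prolyl 4-hydroxylase, by 0.53. Plod3 and P4ha1 rose by 0.39 and 0.33, but neither passed with upper-quartile or ribosomal protein scaling (adjusted p = 0.314 to 0.527), nor without KO 4 (0.0854 and 0.0804) or WT 1 (0.0974 and 0.111); Plod3 also lost its call without WT 3 (0.0592) and P4ha1 without KO 1 (0.0649) or WT 4 (0.053) and with the stricter filter (0.0541). The prolyl 4-hydroxylase subunits P4ha2 (-1.504) and P4ha3 (-1.32), the second galactosyltransferase Colgalt2 (-1.72) and the prolyl 3-hydroxylase P3h2 (-1.85) fell. Of 15 genes that trim and cross-link procollagen, 8 fell (53.3%, beside 28.2% of all genes), 0 rose (beside 25.3%) and 7 did not pass. Most of the 8 lay at a mean log2 CPM of 1 to under 4. There, 40.3% of protein-coding genes were called lower and 20.8% higher. Without KO 2 or WT 2 the count of falls was 3, and without KO 1 it was 5. At an unadjusted p under 0.05 the list had 9 lower and 0 higher, with DESeq2 8 and 0 and with limma-voom 6 and 0. Those with the lowest p were Tll2 (-1.70) and Adamts3 (-0.92), of protease families that trim procollagen ends, and the transglutaminase Tgm2 (-1.10), with edgeR adjusted p of 0.000111, 0.000976 and 0.000536.

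Of 11 collagen receptor genes, 7 fell (63.6%, beside 28.2% of all genes), 3 rose (27.3%, beside 25.3%) and 1 did not pass. Most of the 7 lay at a mean log2 CPM of 1 to under 4, where 40.3% of protein-coding genes were called lower. The 3 that rose lay at 4 and over, where 46.4% were called higher. The fibril-binding integrin Itga11 fell to 10.6 ± 3.05 CPM in the libraries labelled KO, against 38.5 ± 7.72 CPM in those labelled WT (SD, n = 4 each) and the receptor tyrosine kinase Ddr2 by 1.29 on the log2 scale (edgeR adjusted p = 1.02e-05 and 0.000796). Those that rose were Mrc2 (1.68), which takes up collagen fragments, Adgrg1 (0.58), a type III collagen receptor, and the shared integrin chain Itgb1 (0.39). Neither Adgrg1 nor Itgb1 passed under upper-quartile or ribosomal protein factors (adjusted p = 0.0533 to 0.195). Of 14 collagenases and their inhibitors, 10 were tested, 2 rose and 2 fell, or 20% each. With 10 genes, that is near the 25.3% higher and 28.2% lower among all genes. Mmp15 rose by 2.53 and Mmp14 by 0.65, both membrane-bound, and the gelatinases Mmp2 and Mmp9 fell by 1.33 and 0.62. Mmp14 lost its call without WT 1 (adjusted p = 0.0576) or WT 3 (0.0519) and under upper-quartile (0.121) or ribosomal protein factors (0.124), and without KO 3 the list had 4 rises.

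Of 16 partners of type IV collagen in basement membranes, 9 fell (56.2%, beside 28.2% of all genes), 4 rose (25.0%, beside 25.3%) and 3 did not pass. Lama1, the laminin chain of early embryonic basement membranes, fell to 61.6 ± 6.71 CPM in the libraries labelled KO, against 126 ± 9.02 CPM in those labelled WT (SD, n = 4 each), at an edgeR adjusted p = 8.49e-06. Nid2, which links laminin to type IV collagen, rose to 117 ± 25.1 CPM in the libraries labelled KO, against 35.2 ± 2.66 CPM in those labelled WT (SD, n = 4 each), at an edgeR adjusted p = 2e-06, and the proteoglycan Agrn rose by 1.27. The others that rose were Lamb2 (0.77) and Lamc1 (0.36). Lamc1 lost its call under upper-quartile (adjusted p = 0.373) and ribosomal protein factors (0.26) and without KO 2, KO 4 or WT 1 (0.0503 to 0.058). Of 14 interstitial matrix partners, 13 were tested, 3 rose (23.1%) and 5 fell (38.5%), beside 25.3% and 28.2% of all genes. Most of those tested lay at a mean log2 CPM of 1 to under 4. There, 20.8% of protein-coding genes were called higher and 40.3% lower. Fibronectin (Fn1) rose to 563 ± 76.5 CPM in the libraries labelled KO, against 258 ± 11.02 CPM in those labelled WT (SD, n = 4 each), and Bgn and Fbn1 rose by 0.96 and 0.62. Periostin (Postn) fell by 2.12, Thbs2 by 1.31, Thbs1 by 1.17, Tnc by 1.11 and elastin (Eln) by 0.54. Fbn1 did not pass with upper-quartile (0.0752) or ribosomal protein scaling (0.0873), and Eln did not without KO 2, KO 4, WT 3 or WT 4 (0.0541 to 0.0815) or without a low-count filter (0.0793).

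The collagens that fell were ordered alike across libraries. Of the 26, KO 3 was the highest library labelled KO for 21 and KO 2 the lowest for 17, and WT 2 was the highest library labelled WT for 15 and WT 4 the lowest for 20. The number of genes with at least 1 count was 40194, 33425, 38645 and 36613 in KO 1 to KO 4 and 41085, 41470, 40367 and 38395 in WT 1 to WT 4, so KO 2 and WT 4 were also lowest there. At the upper end WT 2 matched, but KO 1 was the highest library labelled KO for only 2 of the 26 collagens. By total count WT 4 was the smallest library labelled WT (14732396) and KO 2 the largest labelled KO (19947912). Among marker lists of the cells that make matrix, 6 peritubular myoid genes summed to 17.9 to 31.6 CPM in the libraries labelled KO and 48.3 to 91.4 CPM in those labelled WT, where 4 of 5 tested fell and 0 rose (Des and Myh11 were the most abundant). Endothelial genes summed to 77.1 to 90.0 CPM in the libraries labelled KO and 96.4 to 136 CPM in those labelled WT, with 6 of 7 tested lower and 1 (Pecam1) higher, and 4 lower and 1 higher without KO 4. The Sertoli genes described above mostly went the other way, with 5 of 9 higher and 1 lower, and 3 higher and 0 lower without KO 4. Beside these counts, 28.2% of all genes tested were called lower and 25.3% higher. All 5 tested myoid genes lay at a mean log2 CPM of 1 to under 4. There, 40.3% of protein-coding genes were called lower and 20.8% higher. Pecam1 and Cdh5 had the highest endothelial means in the libraries labelled KO, and Flt1 and Cdh5 in those labelled WT. The 8 interstitial mesenchymal genes gave 66.7 to 81.8 CPM in the libraries labelled KO and 67.2 to 99.7 CPM in those labelled WT, with 2 of 8 higher and 1, the most abundant Pdgfrb, lower; Pdgfra came next, and Pdgfrb did not pass without KO 4. Mesothelial genes, led by Krt19 and Lrrn4, gave 11.2 to 14.6 CPM in the libraries labelled KO and 11.7 to 17.7 CPM in those labelled WT, with 1 of 3 tested higher and 1 lower. Macrophage and blood genes, led by Cd68, gave 10.9 to 18.8 and 8.54 to 15.6 CPM in the same order, with 1 of 6 higher and 2 lower. No marker of these lists was at 0 in all 4 libraries of either group. The part of these cells, of library complexity and of gene span in the collagen differences was not tested. Without KO 4 there were 27 falls and 2 rises among the collagens.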

How the data were processed

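RNA was sequenced from mouse prospermatogonia in 8 libraries, 4 labelled KO and 4 labelled WT. Per the labels' protocols, RNA was extracted with TRIzol from frozen cell pellets and made into ribosomal RNA-depleted total RNA libraries with a low-input kit that carries molecular identifiers. Per the submitters' processing notes, reads were handled with tools that include STAR, Trim Galore and featureCounts 1.5.0, as well as DESeq2 and edgeR, on mm10. The deposited values are raw read counts per gene, and the authors' strand setting, annotation release and use of the molecular identifiers are not stated in the labels or the table. Total RNA holds unspliced transcripts, and counting rules for introns are likewise not stated.

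Identifiers were matched without their version to GENCODE M21, which named 55141 of 55401. Counts were tested with edgeR 4.0.16 (R 4.3.3) by the quasi-likelihood test with TMM factors, filterByExpr and the group alone, adjusted by Benjamini-Hochberg over all 24005 genes tested. The biological coefficient of variation was 0.217. Levels are CPM from TMM-scaled library sizes, divided by merged exon length where genes are compared. Floors cover counting error only. Alternatives were DESeq2 1.42.0, limma-voom 3.58.1, RLE, upper-quartile and ribosomal protein factors, other filters and thresholds, a somatic marker covariate, a replicate block, robust dispersion, the longest transcript as length, and each library left out. The test was also run on simulated counts in which few genes changed, equally in both directions. In these data 6083 genes were called higher and 6770 lower, so that run does not check the scaling used here.

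The members and all lists were chosen with earlier results of these data known. Values in every library are given for the 4 most abundant members per kb and the 3 with the lowest p in each class, the type IV chains, and the largest rise and fall. Related lists are described by the 3 members with the lowest p and by every called member of a direction with 5 or fewer. Col1a2, Col3a1, Col5a2, Col6a4, Col6a5, the chain pairs and the span bins were added after values were seen.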

Additional observations from a re-analysis of the deposited data

Results flagged for a closer look

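In 3 of 88 groups of 4 libraries, 1 library stood far from the other 3, judged by its gap to the nearest of them over the whole range (Dixon's test); chance flags about 1 in 20 groups. Col13a1 was at 13.7 CPM in KO 3, against 17.9 to 18.6 CPM in the other libraries labelled KO. Col8a2 was at 11.96 CPM in KO 3, against 9.76 to 9.96 CPM in the other libraries labelled KO. Col3a1, the type III chain, was at 56.3 CPM in WT 2, against 21.3 to 25.5 CPM in the other libraries labelled WT; WT 2 was also the library labelled WT with the highest sum of peritubular myoid genes (91.4 CPM) and of interstitial mesenchymal genes (99.7 CPM), and the part of those cells in the Col3a1 level was not tested.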

How the results depend on the processing

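Of the 28 collagens called, 26 kept their call and direction in every alternative tool, scaling, filter and covariate and with each library left out; the exceptions were Col4a2 and Col23a1. Collagens called lower numbered 24 to 31 across these settings, and 20 with a log2 difference of at least 1, where 0 were higher. Without a low-count filter, 2 fibrillar collagens and 2 collagens of mean log2 CPM 4 and over were higher. Upper-quartile and ribosomal protein scaling both gave 3 folding genes, 1 receptor and 1 degradation gene higher, and upper-quartile scaling 9 folding and 8 interstitial genes lower, a fibrillar median of -1.26 and 4033 genes higher in all; ribosomal protein scaling gave 3996 and the fold limit 2107. The median of all genes was 0.014 with DESeq2, -0.026 with RLE factors, -0.29 and -0.23 under upper-quartile and ribosomal protein factors, -0.0056 without a filter and -0.026 with the stricter one.

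Some estimates that did not pass changed sign. With upper-quartile scaling they were -0.032 (Col18a1), -0.21 (Col2a1), -0.22 (Col13a1), -0.14 (Col9a3) and -0.027 (Col10a1), with ribosomal protein scaling -0.14 (Col2a1), -0.16 (Col13a1) and -0.083 (Col9a3), with the stricter filter -0.0094 (Col2a1) and -0.018 (Col13a1), and with DESeq2 0.0089 (Col4a1). The cause was not tested.

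With each library left out in turn, collagens higher ranged from 2 to 4, fibrillar ones from 1 to 3 and those of mean log2 CPM 4 and over from 1 to 3. Folding genes higher ranged from 3 to 5, processing genes lower from 3 to 8 and degradation genes higher from 1 to 4. The fibrillar median ranged from -1.15 to -0.80 and that of all genes from -0.038 to -0.0048. Estimates ranged from -0.13 to 0.034 for Col4a1, -0.054 to 0.21 for Col2a1, -0.051 to 0.14 for Col13a1 and -0.0039 to 0.36 for Col10a1. Log2 ratio differences ranged from -0.18 to 0.34 for Col1a1 over Col1a2, -0.046 to 0.20 for Col4a4 over Col4a3, -0.30 to 0.17 for Col4a6 over Col4a5 and -0.23 to 0.27 for Col11a1 over Col11a2.

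The libraries were not treated as pairs. Deviations from the group means correlated at r = 0.214, -0.241, -0.145 and -0.01 for the same-numbered libraries 1 to 4. Libraries of unlike number gave -0.246 to 0.284. Only KO 1 and WT 1, the pair with the positive value, also share a number in their library names. The values for numbers 2 to 4 and the replicate block thus rest on an assumed pairing and cannot decide it. With the replicate block 26 collagens were lower and 2 higher, processing genes lower numbered 5, Lamc1 (adjusted p = 0.0548) and P4ha1 (0.0788) did not pass, and all genes were 6049 lower and 5469 higher. A covariate of somatic marker level, which mainly marks KO 4 (2.868, against 1.883 to 2.443 in the others) and so does not follow the myoid or endothelial lists, gave 27 collagens lower and 2 higher. At these depths Col8a1 rested on few counts.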
